A study of Homo sapiens with 8 samples.

Results

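The clusters MIR192 with MIR194-2 and MIR215 with MIR194-1 are a pair of duplicated miRNA loci that are typical of the intestinal epithelium. Their 6 mature products, hsa-miR-192-5p, hsa-miR-192-3p, hsa-miR-194-5p, hsa-miR-194-3p, hsa-miR-215-5p and hsa-miR-215-3p (prefix left out below), were taken by exact name from the 2575 miRNA names counted in each library. All 6 names were found, 5 had a read in at least 1 library, and 2, miR-192-5p and miR-194-5p, had enough reads to be tested among 480 miRNAs. The data come from small RNA of HCT116, an established line of human colorectal cancer cells that retains wild-type p53, at passages 16 to 19. ETBF libraries (n = 4) came from cells kept for 6 hours at a multiplicity of infection of 500 with enterotoxigenic Bacteroides fragilis, a gut bacterium whose secreted toxin is a metalloprotease. Control libraries (n = 4) came from cells titled untreated, which received bacterial medium lacking ETBF according to the treatment protocol. All libraries are of this 1 line, and the labels do not say whether replicates were separate cultures, so the spread that p-values are set against may be technical.

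Transcription of both loci is driven by hepatocyte nuclear factors, the HNF1 and HNF4 proteins that also switch on genes of the mature gut epithelium, and p53 raises it after DNA damage. Within each locus the hairpins are cut from a shared primary transcript, so members of a locus are often described as co-expressed. miR-192-5p and miR-215-5p are known to repress cell cycle genes and the thymidylate synthase gene TYMS, and miR-194-5p to repress genes of the mesenchymal state such as the N-cadherin gene CDH2. In the intestine miR-192 and miR-194 are markers of epithelial differentiation, and their level is often lower in colorectal tumours than in normal mucosa.

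The mature sequences are given because the loci differ in only a few bases. They were read from the RefSeq table of build GRCh38.p14, in which all 6 names matched, while the count files carry no coordinates and the submitters' processing notes name GRCh37.p5. Each runs 5′ to 3′ with its seed, bases 2 to 8, in capitals. The seed is the stretch that pairs with target messenger RNAs.
miR-192-5p: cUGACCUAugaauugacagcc
miR-215-5p: aUGACCUAugaauugacagac
miR-194-5p: uGUAACAGcaacuccaugugga
miR-192-3p: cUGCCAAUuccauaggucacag
miR-194-3p: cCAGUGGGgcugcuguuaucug
miR-215-3p: uCUGUCAUuucuuuaggccaaua

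miR-192-5p and miR-215-5p are 21 bases long, share the seed UGACCUA and differ at 2 positions, counted from 1 at the 5′ end of miR-192-5p, as C1A and C20A, with the base of miR-192-5p first. No other mature miRNA in the RefSeq table has that seed, and none shares the seed GUAACAG of miR-194-5p. Because of this near identity, an aligner that allows mismatches can place a read of one under the other. The level of miR-215-5p, the far rarer of the pair, is uncertain for that reason.

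The hairpins show which products belong to which locus, with the annotated mature arms in capitals.
MIR192: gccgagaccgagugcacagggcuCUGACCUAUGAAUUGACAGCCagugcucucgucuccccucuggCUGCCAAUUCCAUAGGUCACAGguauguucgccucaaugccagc
MIR194-2: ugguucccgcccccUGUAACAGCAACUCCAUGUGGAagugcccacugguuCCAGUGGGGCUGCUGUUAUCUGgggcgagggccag
MIR215: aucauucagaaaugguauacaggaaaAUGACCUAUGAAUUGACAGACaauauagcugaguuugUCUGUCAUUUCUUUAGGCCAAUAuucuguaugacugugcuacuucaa
MIR194-1: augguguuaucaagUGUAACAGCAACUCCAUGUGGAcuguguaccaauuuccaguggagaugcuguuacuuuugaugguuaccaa

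In GRCh38.p14 MIR192 lies at chr11:64891137-64891246 and MIR194-2 at chr11:64891355-64891439, both on the minus strand, with 108 bases between them. Both overlap an exon of MIR194-2HG, a long noncoding RNA gene on the same strand, in GENCODE release 29. MIR215 lies at chr1:220117853-220117962 and MIR194-1 at chr1:220118157-220118241, also on the minus strand and close together. This pair lies inside IARS2, which encodes the mitochondrial isoleucyl-tRNA synthetase, on the strand opposite to that gene and outside its annotated exons in GENCODE, and RefSeq also places it within LOC124904515, a long noncoding RNA gene. miR-194-5p has the same sequence in MIR194-1 and MIR194-2, so its reads cannot be assigned to a locus, whereas RefSeq annotates miR-194-3p for MIR194-2 alone. The counts of miR-194-5p were not all multiples of 2 (781 in ETBF replicate 1, for example), so its reads were not simply counted once per hairpin copy.

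Cells exposed to ETBF had less miR-192-5p than control cells, while miR-194-5p, which shares a locus with it, did not pass the test. miR-215-5p was a trace product, and the 3p arms were at or near 0 reads in both groups. Levels are in CPM, the deposited counts divided by library sizes in units of 1e6 counts, after scaling with the TMM method of edgeR.

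miR-192-5p stood at 146.3, 141.7, 154.1 and 155.3 CPM in ETBF replicates 1 to 4 and at 188.1, 201.8, 160.3 and 186.6 CPM in control replicates 1 to 4. All ETBF libraries were below all control libraries, although control replicate 3 was close to the highest ETBF library. The mean was 149.4 ± 6.48 CPM in ETBF cells and 184.2 ± 17.4 CPM in control cells (SD, n = 4 each). The log2 fold change of ETBF over control was -0.30 (SE 0.09, 95% interval -0.49 to -0.12), a level 1.23-fold lower or a fall by 19.0%, with an adjusted p of 0.0124 (edgeR's quasi-likelihood test, two-sided, Benjamini-Hochberg over 480 miRNAs, threshold 0.05). In RNA from whole cultures, fewer cells of a type and less RNA per cell cannot be told apart.

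miR-194-5p stood at 167.8, 164.2, 168.0 and 171.8 CPM in ETBF replicates 1 to 4 and at 134.6, 175.9, 145.2 and 165.7 CPM in control replicates 1 to 4. The ETBF libraries lay close together inside the wider range of the controls, so the groups overlapped. The mean was 168.0 ± 3.08 CPM in ETBF cells and 155.4 ± 18.8 CPM in control cells (SD, n = 4 each). The log2 fold change was 0.11 (SE 0.09, adjusted p = 0.392, edgeR), and its 95% interval of -0.08 to 0.31 leaves room for a small change in either direction.

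Of the 2 tested members, 1 was thus called, and it was lower. Over all 480 tested miRNAs 165 were called, or 34.4%, with 14.6% lower and 19.8% higher in ETBF cells. Without overlap between the groups were 33.8%. A call on 1 of 2 members is therefore not unusual for this comparison. The change of miR-192-5p was also a small one among the falls: of the 70 miRNAs called lower, whose median log2 fold change was -0.48, only 9 fell by less. With upper-quartile scaling the calls over all miRNAs were 71 higher and 89 lower, against 95 higher and 70 lower with TMM, and miR-192-5p was lower under both.

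**Figure D1:**
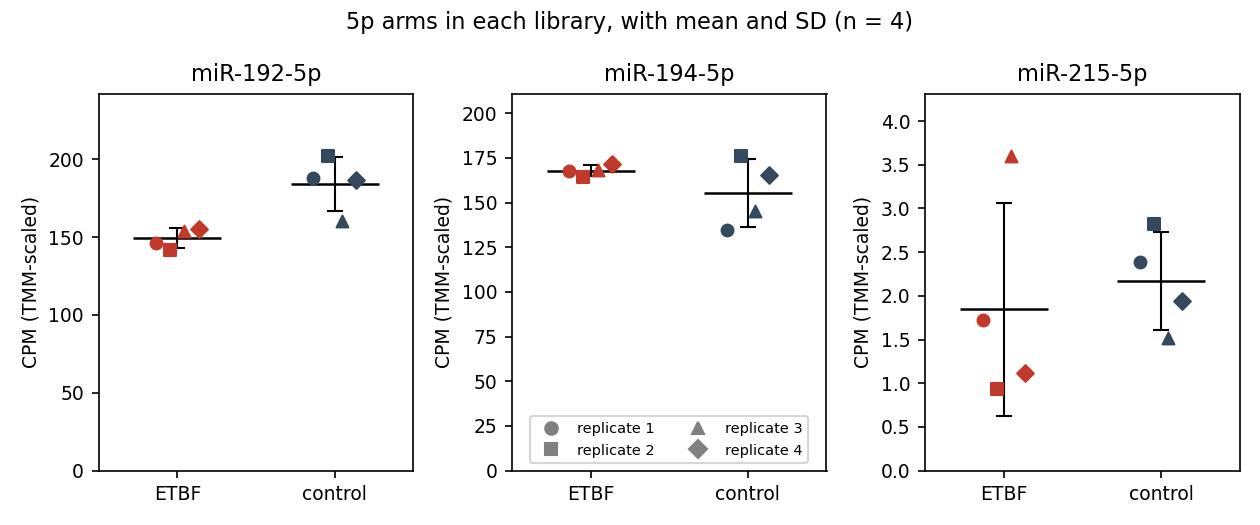
Level of the 5p arms of miR-192, miR-194 and miR-215 in CPM (vertical axes, each from 0) in the 4 ETBF and 4 control libraries, 1 point per library with a marker for its replicate number, the mean as a line and the SD as a bar. The miR-192-5p points of ETBF cells, 141.7 to 155.3 CPM, lie below all control points, whereas the groups overlap for miR-194-5p and for miR-215-5p, which stays below 4 CPM.

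**Figure D2:**
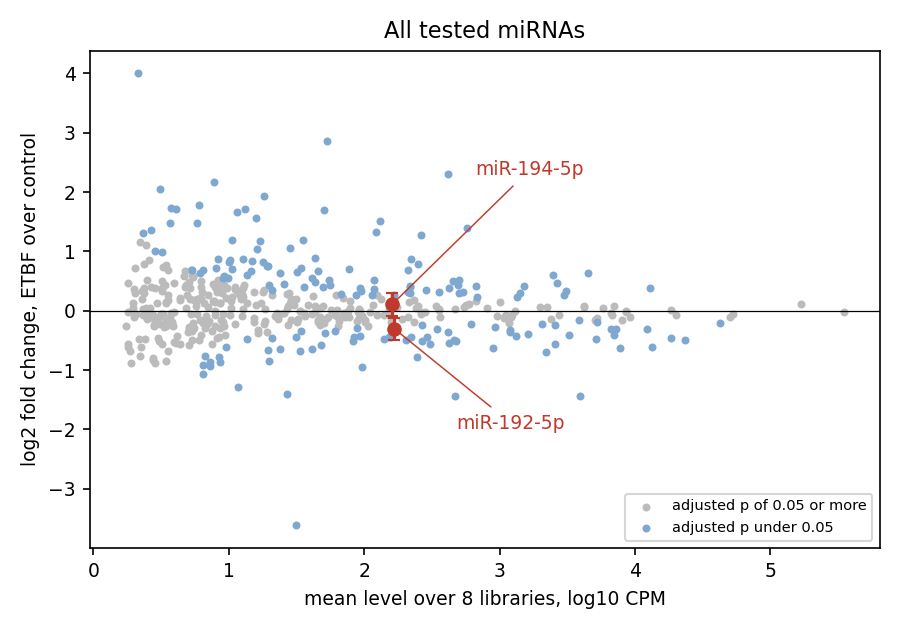
Log2 fold change of ETBF over control (vertical axis) against the mean level over the 8 libraries in log10 CPM (horizontal axis) for the 480 tested miRNAs, with the called ones in blue and miR-192-5p and miR-194-5p in red with their 95% intervals. By level the members rank 122 and 124 of the 480, with miR-192-5p at -0.30 and miR-194-5p at 0.11, amid many called miRNAs with larger changes.

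The proportion of miR-192-5p to miR-194-5p was lower in every ETBF library than in any control library. This ratio of counts is taken within a library and so does not depend on the scaling. It was 0.872, 0.863, 0.917 and 0.904 in ETBF replicates 1 to 4 and 1.40, 1.15, 1.10 and 1.13 in control replicates 1 to 4. miR-194-5p was thus the more counted of the pair in all 4 ETBF libraries, and miR-192-5p in all 4 control libraries. The mean ratio was 0.889 ± 0.026 in ETBF cells and 1.19 ± 0.137 in control cells (SD, n = 4 each). Ligation and amplification favour some small RNAs over others, so a ratio of 1 does not mean equal numbers of molecules, but such a bias is shared by the groups where libraries were made alike.

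On the log2 scale, with 0.5 added to each count, the ratio of miR-192-5p to miR-194-5p was lower by 0.42 in ETBF cells (log2 difference -0.42, a factor of 1.34). An exact two-sided permutation test with 70 arrangements gave p = 0.0286, the smallest this design allows, and an adjusted p of 0.0857 over the 3 ratios computed between members. It therefore did not pass after adjustment. Control replicate 1 stood apart with the highest ratio, and without it the log2 difference was -0.34, still with no overlap (exact permutation p = 0.0571, then the smallest possible). In a fit chosen after the values were seen, limma on the ratio of each of 479 other tested miRNAs to miR-194-5p gave -0.42 (SE 0.12, 95% interval -0.69 to -0.15, adjusted p = 0.0342), where 23.8% of these ratios were called. Ratios without overlap between the groups were common in these libraries: they made up 31.6% of all 114960 pairs of tested miRNAs, and 52.8% of the pairs among the 124 at least as abundant as miR-194-5p.

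**Figure D3:**
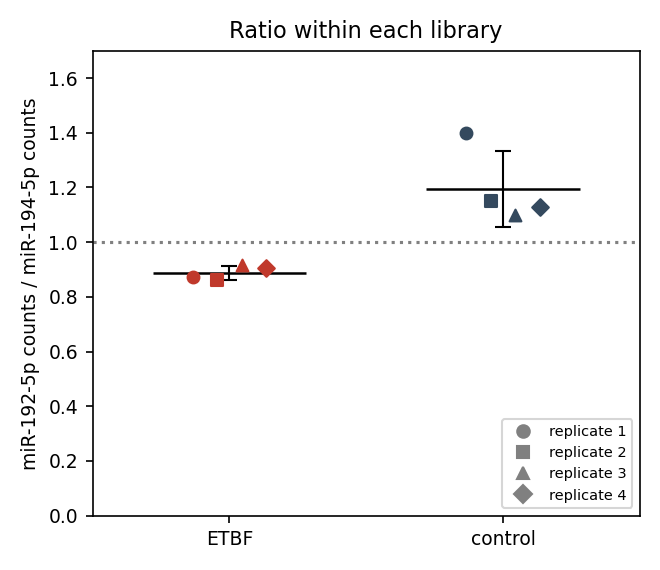
Counts of miR-192-5p divided by counts of miR-194-5p in each library (vertical axis from 0, dotted line at 1) for the 4 ETBF and 4 control libraries, with the mean as a line and the SD as a bar. All ETBF points, 0.863 to 0.917, lie below 1 and all control points, 1.10 to 1.40, above it, with control replicate 1 the highest.

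miR-215-5p, the seed partner of miR-192-5p from the other locus, had 8, 4, 14 and 3 reads in ETBF replicates 1 to 4 and 12, 16, 8 and 13 in control replicates 1 to 4. These correspond to 1.72, 0.940, 3.60 and 1.12 CPM in ETBF cells and to 2.39, 2.82, 1.52 and 1.94 CPM in control cells. The groups overlapped, with the highest value and the lowest both in ETBF libraries. It reached the filter's cutoff of 2.01 CPM in 3 libraries where 4 were needed, and so was not tested. The mean was 1.84 ± 1.21 CPM in ETBF cells and 2.17 ± 0.560 CPM in control cells (SD, n = 4 each).

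Of the reads that carry the seed UGACCUA, miR-215-5p gave 29 of 2328 in ETBF cells (1.25%, exact 95% binomial interval 0.836 to 1.78%) and 49 of 4235 in control cells (1.16%, 0.857 to 1.53%). These intervals cover counting error only, since reads were pooled over the libraries of a group. They also treat each read as an independent molecule, which the counts cannot show. The pooled shares lay within each other's intervals. By library the share ran from 0.659 to 2.28% in ETBF cells and from 0.94 to 1.38% in control cells. The pooled intervals leave out this spread, so they cannot decide whether the groups differ. Together the seed partners stood at 151.2 ± 7.14 CPM in ETBF cells and 186.4 ± 17.9 CPM in control cells (SD, n = 4 each), a sum set almost wholly by miR-192-5p. Neither remaining ratio passed: miR-215-5p to miR-194-5p had a log2 difference of -0.45 (exact permutation p = 0.343, adjusted p = 0.514) and miR-192-5p to miR-215-5p one of 0.03 (exact permutation p = 0.943, adjusted p = 0.943), a difference whose sign turned with a pseudocount of 1.

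The 3p arms, the strands opposite the 5p products in the hairpins printed above, were hardly seen. miR-192-3p had 0 reads over the 4 ETBF libraries and 1 read of 4187 in control cells, in replicate 3. In ETBF cells a limit of 3 counts corresponds to 0.130% of the reads of both arms, and the exact 95% binomial interval reaches 0.16%. miR-194-3p had 0, 0, 2 and 0 reads in ETBF replicates 1 to 4 and 0, 2, 3 and 3 in control replicates 1 to 4. That is 0.0771% of the reads of both arms in ETBF cells (exact 95% binomial interval 0.00934 to 0.278%) and 0.225% in control cells (0.0971 to 0.442%), intervals that overlap. miR-215-3p had 0 reads in all 8 libraries. With 78 reads of its 5p partner, a limit of 3 counts corresponds to 3.85%, and the exact 95% binomial interval reaches 4.62%.

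No arm ratio of the clusters could be tested, as none of the 118 hairpin names with both arms past the filter belongs to them. The strand choice of miR-192 and miR-194 was on the one-sided end of what these cells showed, while miR-215 had too few reads to be ranked. Among 138 hairpin names with at least 1000 reads over both arms and all libraries, the median share of the minor arm was 1.88%, and 33 names had more than 10%. miR-192 had the ninth lowest share, 0.0154%, and miR-194 stood at rank 23 with 0.162%, although the reads of miR-194-5p come from both of its hairpins. Among the 138, the names at rank 1 to 5 had 0 reads of the minor arm.

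In level, miR-194-5p and miR-192-5p were the neighbouring leaders of the 6. In ETBF cells their CPM ranges did not overlap, with miR-194-5p above, and in control cells the ranges overlapped. Ranked by CPM among all 2575 names, miR-192-5p took places 111 to 131 and miR-194-5p places 117 to 133 over the 8 libraries, and miR-215-5p places 414 to 597. Each of these mature RNAs is sequenced whole and they are 21 or 22 bases long, so length does not enter these levels.

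The profiles most like those of the tested members were sought by the root-mean-square distance between log2 CPM values over the 8 libraries, each profile centred on its own mean. The difference between the groups enters this distance. Near profiles therefore tend to have a similar fold change, and their fold changes below are a description only. Nearest to miR-192-5p were miR-126-3p (distance 0.0946), which lies in the endothelial gene EGFL7, miR-1287-5p (0.101) and miR-744-5p (0.103). miR-126-3p averaged 1131 ± 98.6 CPM in ETBF cells and 1520 ± 83.9 CPM in control cells (SD, n = 4 each), with a log2 fold change of -0.43 and an adjusted p of 0.000429 (edgeR). miR-744-5p fell as well (log2 fold change -0.27, SE 0.08, adjusted p = 0.0119, edgeR), and miR-1287-5p was at -0.20 (SE 0.11, adjusted p = 0.164, edgeR). Nearest to miR-194-5p were miR-449a (0.0974), miR-106b-3p (0.102) and miR-27b-3p (0.104). Of these miR-106b-3p rose (log2 fold change 0.24, SE 0.07, adjusted p = 0.0125, edgeR), while miR-449a was at 0.22 and miR-27b-3p at 0.09 without passing. The members were not each other's nearest profile: miR-194-5p came at place 148 of 479 from miR-192-5p, at a distance of 0.231 where the median was 0.318.

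Among other p53-responsive miRNAs, 3 of 7 tested were higher in ETBF cells, 0 were lower and 4 did not pass (edgeR, over all 480), with a median log2 fold change of 0.39 against 0.01 over all tested miRNAs, of which 19.8% were called higher and 14.6% lower. miR-107, from a PANK1 intron, averaged 478.3 ± 27.4 CPM in ETBF cells and 365.8 ± 14.3 CPM in control cells (SD, n = 4 each). It differs little from miR-103a-3p in sequence, and its level is uncertain for that reason. miR-103a-3p, which is not on the list, averaged 14504.5 CPM in ETBF cells and 11185.7 CPM in control cells. Its log2 fold change was 0.37 (adjusted p = 0.000485, edgeR), against 0.39 for miR-107. miR-34a-5p, the best known p53 target among miRNAs, averaged 247.8 ± 20.9 CPM in ETBF cells and 187.6 ± 13.4 CPM in control cells (SD, n = 4 each, log2 fold change 0.40, adjusted p = 0.00162, edgeR). miR-16-1-3p, a minor arm of the DLEU2 locus, rose by 2.17 on the log2 scale (adjusted p = 9.71e-07, edgeR), whereas miR-16-5p rose by 0.30. Large changes of minor arms were not limited to this list. miR-21-3p was at 1.40 and miR-128-1-5p at 1.67, with their major arms miR-21-5p at -0.02 and miR-128-3p at -0.47. miR-642a-3p was at -1.29, with miR-642a-5p at -0.06. miR-210-5p was at -0.86, but its major arm miR-210-3p fell further, at -1.43. How many minor arms rose or fell was not counted. miR-192-5p had the opposite sign to the 3 called members, and miR-194-5p the same sign with no call. Of the 4 that did not pass, miR-143-3p (-0.16) and miR-34a-3p (-0.05) were negative, and miR-34c-5p (0.61) and miR-145-5p (0.03) positive.

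Among other intestinal and epithelial miRNAs, 4 of 11 tested were lower in ETBF cells, 2 were higher and 5 missed the threshold; the median log2 fold change was -0.13, against 0.01 over all tested miRNAs, of which 14.6% were called lower and 19.8% higher. The 4 most abundant called members were miR-200c-3p (log2 fold change -0.32, SE 0.07), miR-200a-3p (-0.19, SE 0.06), miR-429 (-0.23, SE 0.07) and miR-31-5p (0.34, SE 0.10). The first 3 belong to the miR-200 family, which represses the ZEB factors and so guards epithelial identity, and miR-31-5p is often raised in colorectal tumours. The fall of miR-192-5p was close in size to that of miR-200c-3p, which averaged 10960 ± 774 CPM in ETBF cells and 13640 ± 543 CPM in control cells (SD, n = 4 each). miR-802, an intestinal and liver miRNA, had 0 reads in all libraries.

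The libraries held 2591655 to 4706156 counts in ETBF cells and 5243400 to 6522542 in control cells, so depth moved with the groups. After thinning all libraries to the smallest, miR-192-5p was at -0.25 (adjusted p = 0.0318, edgeR). Among markers of colorectal epithelium, mean CPM in ETBF and control cells was 10960 and 13640 for miR-200c-3p and 6597 and 6743 for miR-200b-3p. It was 4900 and 5590 for miR-200a-3p, 3467 and 2746 for miR-31-5p, and 1901 and 2231 for miR-429. miR-141-3p was far lower, at 182.6 and 200.1 CPM. The neuronal marker miR-9-5p, at 8492 and 8652 CPM, lay above miR-200b-3p. The cell type is therefore taken from the sample titles, which name HCT116, and not from marker abundance. Since miR-192 and miR-194 are also abundant in liver and kidney, the liver marker miR-122-5p was examined, and it averaged 1.60 ± 0.694 CPM in ETBF cells and 2.81 ± 0.797 CPM in control cells (SD, n = 4 each). The marker counts that follow stand beside the share over all 480 tested miRNAs, of which 34.4% were called, 14.6% lower and 19.8% higher. Of the whole list of liver and kidney miRNAs, 1 of 2 tested, the broadly expressed miR-30a-5p, was higher, and miR-122-3p and miR-802 were at 0. The summed level of that list was 386 to 411 CPM in ETBF cells and 287 to 349 CPM in control cells. Of blood and endothelial markers 1 of 5 tested rose (miR-451a) and 1 fell (miR-126-3p), with sums of 1070 to 1300 CPM in ETBF cells and 1480 to 1660 CPM in control cells. miR-223-3p and miR-150-5p, which mark leukocytes, had at most 3 reads over a group. Of stromal and muscle markers 0 of 3 tested passed, with sums of 232 to 285 CPM in ETBF cells and 259 to 270 CPM in control cells and with miR-133b and miR-206 at 0. The most abundant was miR-145-5p, at 155.0 CPM in ETBF cells and 151.9 CPM in control cells, which is also in the p53-responsive list. Of neuronal markers 2 of 3 tested fell, while miR-124-3p and miR-137 were at 0. The falls were unlike in size: miR-128-3p was at -0.47 and miR-129-5p at -3.62 (adjusted p = 2.67e-10, edgeR). miR-129-5p averaged 4.58 CPM in ETBF cells and 58.59 CPM in control cells. The sum of the neuronal list was 11500 to 14400 CPM in ETBF cells and 13400 to 15700 CPM in control cells, mostly miR-9-5p. Of entries that resemble ribosomal or other RNA classes, a sign of RNA quality, 5 of 5 tested rose, and miR-4454 and miR-1273f were at 0. Their sums were 195 to 610 CPM in ETBF cells and 46.9 to 176 CPM in control cells. The most abundant, miR-6087, averaged 195.1 ± 169.6 CPM in ETBF cells and 67.28 ± 46.39 CPM in control cells (SD, n = 4 each), with overlapping groups. The part of these RNA-class entries in the miR-192-5p result was not tested.

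Across 19 alternatives miR-192-5p stayed lower in ETBF cells and past the threshold, between -0.40 after removal of the trend with GC content and -0.25 with total-count scaling. miR-194-5p stayed above 0 and short of the threshold in the same 19, between 0.02 and 0.17.

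**Figure D4:**
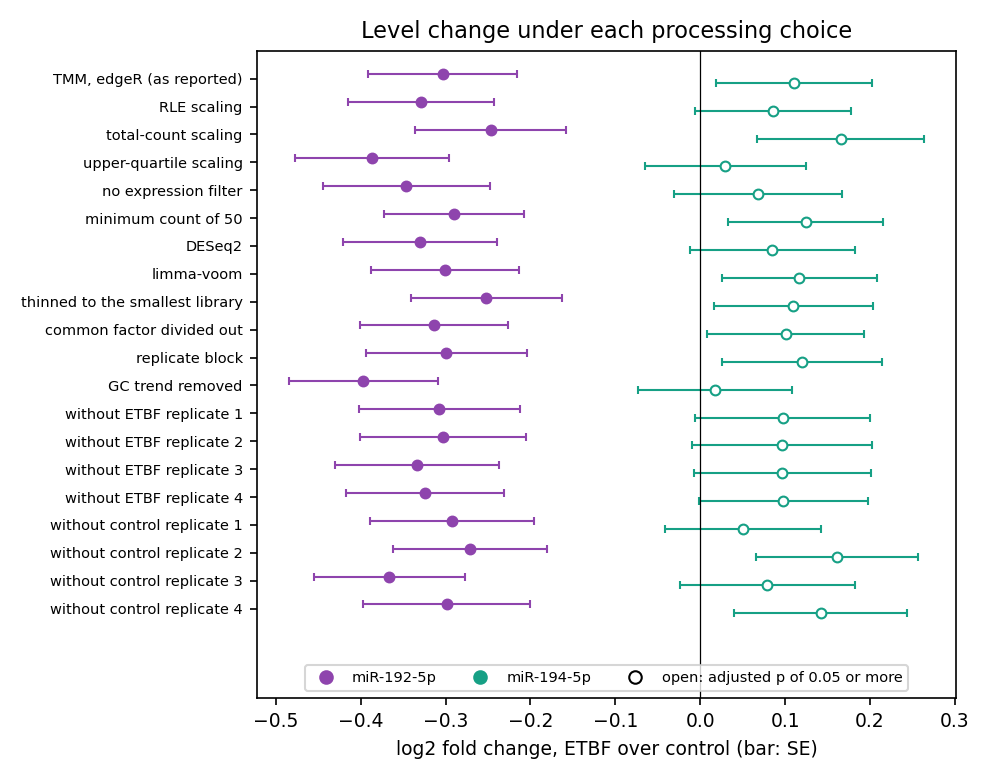
Log2 fold change of ETBF over control (horizontal axis, bars show the SE) for miR-192-5p and miR-194-5p under each processing choice (rows), with filled points for an adjusted p under 0.05 and open points otherwise. miR-192-5p lies between -0.40 and -0.25 with all points filled, and miR-194-5p between 0.02 and 0.17 with all points open.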

How the data were processed

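The deposited files give raw read counts per mature miRNA name, 1 per library. Trimmomatic, FastQC, featureCounts and GRCh37.p5 are named per the submitters' processing notes; neither the aligner nor the miRNA annotation release or strand setting was stated in those notes. Samples were grouped by their titles. Libraries of a group differed beyond sampling noise (chi-square of 18.4 to 112.0 per degree of freedom). Counts were analysed in R 4.3.3 with the quasi-likelihood test of edgeR 4.0.16, TMM scaling, groups as the only term and filterByExpr with a minimum count of 10, and checked on simulated data. SE is the fold change over the square root of F. Ratios were tested by exact permutation. Limits of 3 counts corresponded to 0.447 to 1.12 CPM. Alternatives used DESeq2 1.42.0, limma 3.58.1, other scalings and filters, thinning, GC correction, division of common count factors (43 names), a replicate block and leaving out libraries. The members and lists were chosen with earlier results of these data known. Named were all members, up to 4 called members per pathway list by abundance, the 3 nearest profiles, seed sharers, and the most abundant and zero entries of marker lists. Any other miRNA was named after its values were seen.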

Additional observations from a re-analysis of the deposited data

Results flagged for a closer look

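The ratio of miR-192-5p to miR-194-5p in control replicate 1 stood far from the other controls, at 0.48 on the log2 scale against 0.14 to 0.20 in the other 3. Its gap to the next library was 0.835 of the range of the 4, narrowly above Dixon's 95% critical value for 4 samples. It was 1 of 14 groups of values examined, and chance flags about 1 in 20. In that library miR-194-5p was at its lowest of the 8, at 134.6 CPM, and miR-192-5p at 188.1 CPM was near the mean of the controls.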

How the results depend on the processing

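The call on miR-192-5p was kept in 19 of 19 alternatives (log2 fold change -0.40 to -0.25, adjusted p 0.00134 to 0.0404), and leaving out 1 library each gave -0.37 to -0.27. miR-194-5p did not pass in any of its 19 (0.02 to 0.17, adjusted p 0.22 to 0.894). The number of called miRNAs lay between 143 and 169. The ratio of miR-192-5p to miR-194-5p kept its sign in 12 of 12 alternatives, with -0.45 to -0.34 when leaving out 1 library, where the exact test cannot go below p = 0.0571. It passed with limma over the ratios of all tested miRNAs to miR-194-5p (-0.42, adjusted p = 0.0342), an alternative chosen after seeing the data. The ratio of miR-215-5p to miR-194-5p ran from -0.81 to -0.22 when leaving out 1 library. The ratio of miR-192-5p to miR-215-5p turned to -0.028 with a pseudocount of 1 and ran from -0.19 to 0.38 when leaving out 1 library. It was at -0.19, -0.13, -0.01 and -0.06 without ETBF replicate 2, ETBF replicate 4, control replicate 1 and control replicate 2. The cause was not tested. miR-215-5p could be tested in 7 alternatives with a looser filter or fewer libraries. Its log2 fold change ran from -0.74 without ETBF replicate 3 to 0.01 without ETBF replicate 2 (adjusted p 0.216 to 0.992). The labels do not say whether equal replicate numbers were handled together, and the counts showed no sign of pairing. The correlations of same-numbered libraries' deviations were -0.058 to 0.061, and 0 of 4 correlated best with its own number. With the number as a block, 159 miRNAs were called and miR-192-5p was at -0.30 (adjusted p = 0.0361), miR-194-5p at 0.12 and their ratio at -0.42 (adjusted p = 0.122, limma). Arm ratios and their alternatives were not run, since no pair of arms of the clusters passed the filter.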
